A study of Mus musculus with 6 samples.

Results

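The IL-6 family genes examined here are 10 genes picked by symbol: the ligands *Il6*, *Lif*, *Il11* and *Clcf1*, the receptor subunits *Il6st*, *Osmr*, *Lifr* and *Il11ra1*, the transcription factor *Stat3* and the feedback inhibitor *Socs3*. All 10 were found among the 17092 genes of the table, and all 10 were among the 13075 genes with enough counts to be tested, with more than 10 counts in every library. All RNA was taken from cultured MEFs (mouse embryonic fibroblasts), which are cells of the connective tissue grown out of embryos. One group of 3 libraries came from WT mice and the other group of 3 from *Aff3ir-ORF2-/-* mice, titled KO in the deposited data. *Aff3ir* is a gene nested inside *Aff3*, and its second reading frame was targeted by injecting Cas9 mRNA and guide RNAs into fertilized eggs. The resulting founders were bred to WT mice, and heterozygous mice were intercrossed to give homozygous global knockout mice. The labels name no treatment, and the number of embryos behind a library is not given in the sources used here, so the p-values below measure the spread between these libraries only. *Aff3ir* itself was not analysed here, so the level of the targeted transcript gives no check of the genotypes here.

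The IL-6 family is a group of secreted cytokines that share the signalling receptor gp130, which *Il6st* encodes. Each ligand is bound by its own set of receptor subunits, and the assembled complex activates Janus kinases, which phosphorylate Stat3. Phosphorylated Stat3 enters the nucleus and switches on target genes, among them *Socs3*, whose protein binds gp130 and shuts the signal off. Fibroblasts are known both to secrete these cytokines and to respond to them, and the family is best known for inflammation, the acute phase response and tissue repair.

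In *Aff3ir-ORF2-/-* MEFs, 6 of the 10 genes were higher than in WT MEFs at an adjusted p under 0.05 with a change of at least 1.5-fold, and 0 were lower. These were the ligands *Il6*, *Lif* and *Il11*, the common receptor *Il6st*, and both *Stat3* and *Socs3*. Across all tested genes, 14.2% were higher and 7.27% were lower by the same rule. The median log2 fold change of the 10 genes was 0.74, against 0.01 over all tested genes. At an adjusted p under 0.05 alone, *Osmr* joined them, which made 7 of 10 genes where the share over all tested genes was 56.8%. In 8 of the 10 genes the scaled values of WT and knockout libraries were fully separated, as they were in 66.0% of all tested genes. The genes were picked for their function by someone who knew earlier results of these data, so these counts describe the 10 genes and are not a test of the family.

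**Figure D1:**
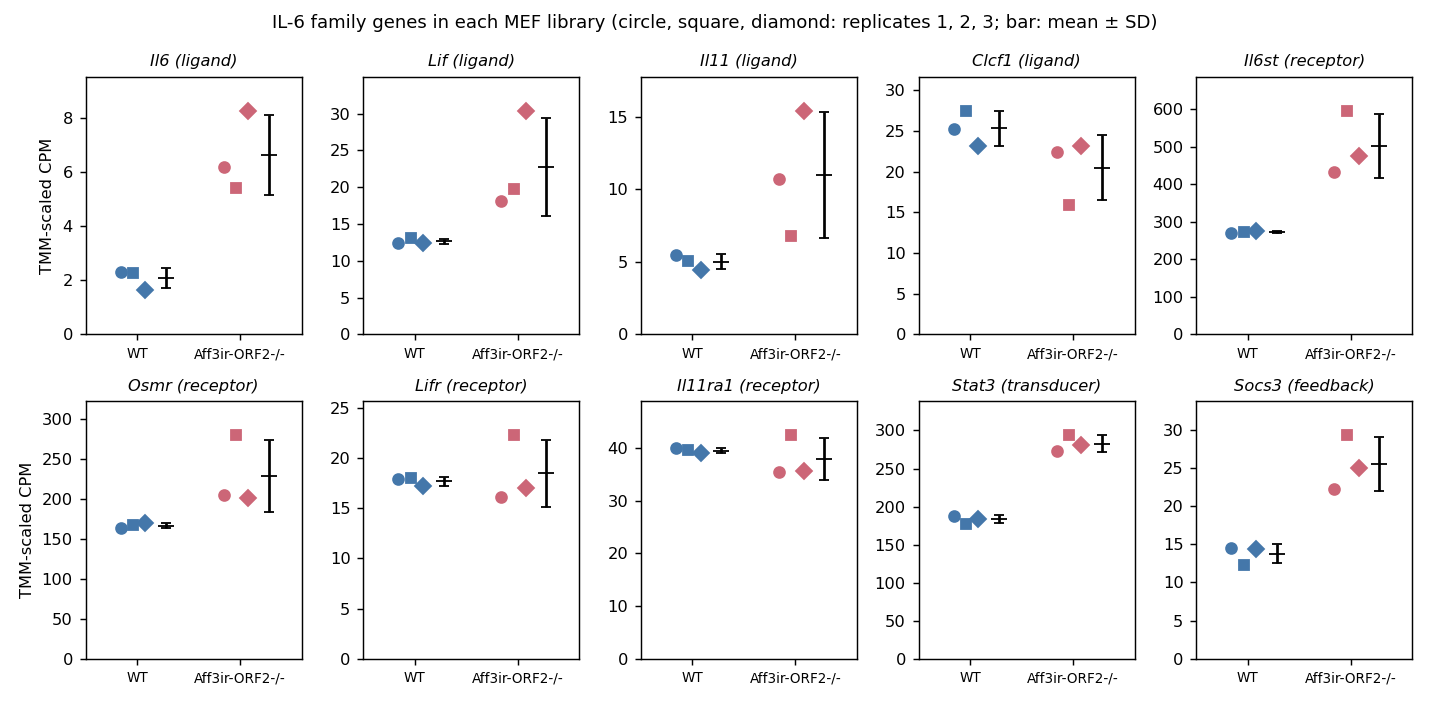
The CPM (counts scaled to library size with TMM factors, each axis starting at 0) of the 10 genes in the 3 WT and 3 *Aff3ir-ORF2-/-* libraries, with each library as a point and the mean ± SD as a bar. *Il6*, *Lif*, *Il11*, *Il6st*, *Osmr*, *Stat3* and *Socs3* had all 3 knockout points above all 3 WT points, whereas *Lifr* and *Il11ra1* overlapped.

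Macrophage markers moved with the genotype. A list of 19 macrophage markers summed to between 23.5 and 27.1 CPM in WT and between 1374 and 2346 CPM in *Aff3ir-ORF2-/-* libraries, lowest in replicate 1 and highest in replicate 3. Of the 18 that were tested, 10 were under 10 counts in some WT library and passed the filter through the knockout libraries, so that their direction was fixed by the filter. The other 8 were all higher, where 14.2% of all tested genes were. In WT, 9 of the 19 had more than 3 counts in every library and 3 were at 0 in every library. The most abundant was *Lyz2*, which had 162, 199 and 182 counts in WT MEFs and 14471, 20237 and 25195 in the knockout, followed by *Mpeg1* and *Ctss*. The 10 IL-6 family genes summed to between 735 and 741 CPM in the same WT libraries, where macrophage markers were low, and to between 1042 and 1311 CPM in the knockout, lowest in replicate 1 and highest in replicate 2. In bulk RNA, more cells of a type and more RNA per cell cannot be told apart, and the part of macrophage RNA in the changes described here was not tested.

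All 15 fibroblast markers had more than 3 counts in every library, led by *Fn1*, *Col1a1* and *Col1a2*. So did 18 of the 19 macrophage markers in every knockout library, so this count alone does not tell cell types apart. The fibroblast markers summed to between 30735 and 30861 CPM in WT and between 25788 and 32647 CPM in *Aff3ir-ORF2-/-* libraries, highest in replicate 2. Of the 15, 2 were higher and 1 was lower by both thresholds, close to the 14.2% and 7.27% of all tested genes. Endothelial markers (2 higher and 1 lower of 5 tested) summed to at most 22.6 CPM in a library and epithelial markers (0 of 1 tested) to at most 4.81. T cell and B cell markers each summed to under 1 CPM in every library. Neutrophil markers summed to at most 0.290 CPM in a WT library and to between 0.644 and 0.988 CPM in the knockout, and *S100a8*, the 1 of them tested, had 5, 1 and 4 counts in WT against 17, 12 and 18, so that it passed the filter through the knockout libraries.

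The promoter sequences below show where short motifs of transcription factors lie just upstream of 4 of the genes that rose. The sequences are those that RefSeq gives for GRCm38.p6, read for the 250 bases before each start site, and 9 of the 10 genes matched an entry. *Clcf1* did not. The 9 genes have 12 such windows, since some have more than 1 start site, and 5 of the 12 held at least 1 of the 5 motifs searched. Capitals mark the matches. For *Il6* the window is chr5:30012864-30013113 on the plus strand, for *Il11* a window at an inner start site, chr7:4778142-4778391 on the minus strand, and for *Lif* the part that precedes the first annotated exon, chr11:4257318-4257556 on the plus strand. For *Socs3* a stretch of 30 bases is shown, chr11:117969501-117969530 on the minus strand, because its window lies in an annotated exon of another *Socs3* transcript.
Il6: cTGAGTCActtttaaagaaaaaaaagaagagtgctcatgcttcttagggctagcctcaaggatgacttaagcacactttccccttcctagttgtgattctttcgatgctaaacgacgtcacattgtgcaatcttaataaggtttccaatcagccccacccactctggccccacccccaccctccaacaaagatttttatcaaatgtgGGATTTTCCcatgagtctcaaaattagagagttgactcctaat
Il11: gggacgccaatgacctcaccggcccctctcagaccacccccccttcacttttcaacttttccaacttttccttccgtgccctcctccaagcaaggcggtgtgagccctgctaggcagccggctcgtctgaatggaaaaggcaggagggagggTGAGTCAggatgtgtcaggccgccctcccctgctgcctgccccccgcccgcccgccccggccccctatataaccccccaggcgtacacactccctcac
Lif: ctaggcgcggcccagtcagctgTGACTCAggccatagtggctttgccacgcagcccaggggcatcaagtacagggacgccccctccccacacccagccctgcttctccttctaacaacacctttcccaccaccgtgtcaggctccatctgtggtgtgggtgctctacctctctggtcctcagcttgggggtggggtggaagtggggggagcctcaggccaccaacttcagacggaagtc
Socs3: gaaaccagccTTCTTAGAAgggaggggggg

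Each of the 3 ligands that rose had a match to the AP-1 motif TGANTCA in a window, where N is any base and both strands were read. It lay 249 to 243 bases before the start site of *Il6*, 98 to 92 before that of *Il11* and 228 to 222 before that of *Lif*. The same motif was found in 6.75% of the 32851 windows of all genes. *Il6* also held the NF-κB motif GGANNTTCC, which 3.59% of windows held, 43 to 35 bases before its start site, and so did *Stat3*, 244 to 236 bases before. *Socs3* held the STAT motif TTCNNNGAA 154 to 146 bases before its start site, which 7.02% of all windows did. The C/EBP motif TTGCNNCAA (1.74% of windows) and the CRE motif TGACGTCA (1.55%) had no exact match in the members' windows. Sites that differ from these letters were not searched for, so binding sites of either kind may still be present. No 2 matches overlapped in these windows. A match is a description of the sequence and not a measured binding site.

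*Il6* (gene ID 16193), a cytokine of inflammation and the acute phase, had the largest fitted change of the 10 genes. Its counts were 40, 40 and 29 in WT MEFs and 113, 101 and 152 in *Aff3ir-ORF2-/-* MEFs, given here and below in the order of replicates 1, 2 and 3. Every *Aff3ir-ORF2-/-* library lay well above every WT library, and replicate 3 was the highest. By edgeR's quasi-likelihood test the increase was 3.18-fold, or 1.67 on the log2 scale (adjusted p = 1.25e-04, standard error 0.21). It stayed between 1.47 and 1.79 under the 14 other settings tried.

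*Lif* (gene ID 16878), the leukemia inhibitory factor that keeps mouse embryonic stem cells undifferentiated, had 215, 230 and 217 counts in WT MEFs. In *Aff3ir-ORF2-/-* MEFs the counts were 330, 369 and 558, and replicate 3 again stood highest. The increase of 0.85 on the log2 scale (adjusted p = 0.0100, standard error 0.20) depended in size on that library. Without it, the value was 0.58 (adjusted p = 4.33e-04), just under a 1.5-fold change. The adjusted p stayed under the threshold in all 14 other settings, at most 0.0412.

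*Il11* (gene ID 16156), a ligand known for its part in fibrosis and bone remodelling, gave 95, 89 and 78 counts across the WT libraries and 195, 126 and 283 across the knockout libraries. The genotypes did not overlap, but the knockout libraries spread widely, at 11.0 ± 4.34 CPM against 5.01 ± 0.524 CPM in WT (SD, n = 3 each). The fitted log2 fold change was 1.13 (adjusted p = 0.0162, standard error 0.30). With WT replicate 2 or 3 left out the adjusted p was 0.0523 or 0.0593, so the call was lost without either of these libraries. The log2 fold change was then 1.13 or 1.05, about as large as with all libraries. Without *Aff3ir-ORF2-/-* replicate 3 it was 0.80 (adjusted p = 0.0089).

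*Clcf1* (gene ID 56708), a ligand that signals through the ciliary neurotrophic factor receptor, did not share the increase. It gave 436, 483 and 405 counts across the WT libraries and 408, 297 and 424 across the knockout libraries, and replicate 2 of the knockout was the lowest of the 6. After scaling the genotypes just failed to overlap, since the lowest WT library was at 23.2 CPM and the highest knockout library at 23.1 CPM. Its log2 fold change was -0.31 with a 95% interval from -0.63 to 0.01 (adjusted p = 0.0915), which leaves room for a decrease past 1.5-fold but not for an increase of that size. Without *Aff3ir-ORF2-/-* replicate 2 it was -0.16 (adjusted p = 0.0879), and without WT replicate 2 it was -0.25 (adjusted p = 0.241). It passed the adjusted p threshold without *Aff3ir-ORF2-/-* replicate 3, at -0.40 (adjusted p = 0.0429), and with limma voom, at -0.32 (adjusted p = 0.0489). The annotation has another gene whose exons overlap those of *Clcf1* on the same strand, so its counts are less certain.

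**Figure D2:**
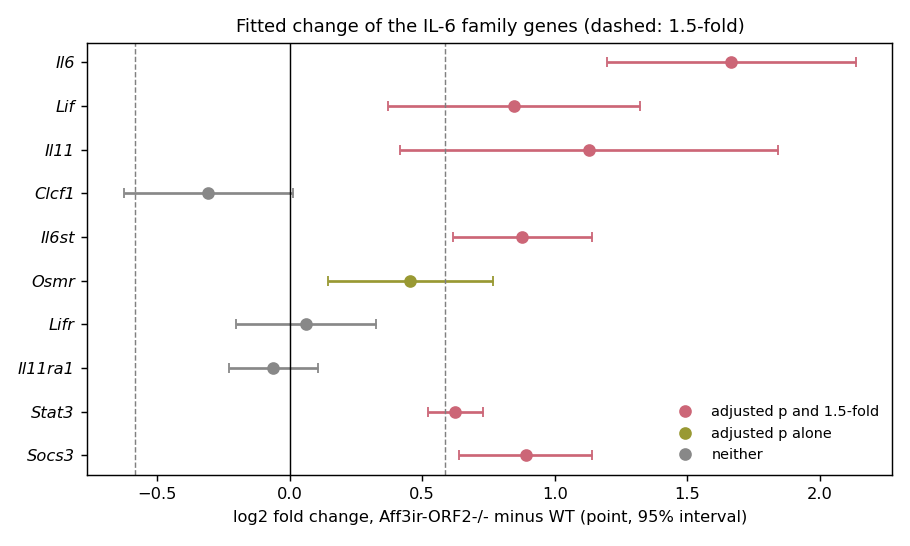
The log2 fold change (*Aff3ir-ORF2-/-* minus WT) of each gene from edgeR's quasi-likelihood test, with its 95% interval and dashed lines at a 1.5-fold change. *Il6* lay highest at 1.67, and the intervals of *Clcf1*, *Lifr* and *Il11ra1* crossed 0.

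Of the 4 receptor subunits, the shared one was called higher, *Osmr* passed the adjusted p threshold alone, and the other two passed neither. *Il6st* (gene ID 16195) gave 4652, 4805 and 4809 counts across the WT libraries and 7882, 11101 and 8723 across the knockout libraries. The WT libraries were nearly equal and the lowest knockout library was far above them. Scaled, the means were 273 ± 2.77 CPM in WT and 501 ± 84.6 CPM in the knockout (SD, n = 3 each). That is an increase of 0.88 on the log2 scale (adjusted p = 5.06e-04, standard error 0.11).

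*Osmr* (gene ID 18414), which pairs with gp130 to bind oncostatin M, gave 2814, 2928 and 2965 counts across the WT libraries and 3738, 5208 and 3675 across the knockout libraries. All knockout libraries were above all WT libraries, with replicate 2 set apart from the other two. Its increase of 0.46 on the log2 scale (adjusted p = 0.0228, standard error 0.13) was under 1.5-fold. It lost the adjusted p threshold when any of the WT libraries was left out (adjusted p from 0.0550 to 0.0720) and without the filter on low counts (0.0537). Without *Aff3ir-ORF2-/-* replicate 2 the increase was 0.28 (adjusted p = 4.57e-06).

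*Lifr* (gene ID 16880), the receptor subunit for *Lif*, gave 309, 316 and 300 counts across the WT libraries and 293, 415 and 312 across the knockout libraries. The genotypes overlapped, and only replicate 2 of the knockout was above the WT range in scaled values. On the log2 scale the difference was 0.06 with a 95% interval from -0.20 to 0.33 (adjusted p = 0.674), which does not reach a 1.5-fold change on either side. Without that replicate it was -0.10.

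*Il11ra1* (gene ID 16157), the subunit that binds *Il11*, was deposited as 688, 695.93 and 681.81 estimated reads for the WT libraries and 644.85, 791 and 654 for the knockout libraries. Its near-identical copies *Il11ra2* and *Gm2002* were listed at the same values as each other, at most 1.6 in a library. How reads were split among the copies is not given in the sources used here, and exons of *Ccl27a* overlap on the opposite strand, so the value is less certain. The genotypes overlapped, with a log2 fold change of -0.06 and a 95% interval from -0.23 to 0.11 (adjusted p = 0.501). Without *Aff3ir-ORF2-/-* replicate 2 it was -0.16 (adjusted p = 0.0184).

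*Stat3* and *Socs3*, the effector and the brake of the pathway, were both higher. *Stat3* (gene ID 20848) gave 3246, 3122 and 3212 counts across the WT libraries and 4964, 5478 and 5163 across the knockout libraries. Both groups were tight, and the gap between them was many times the spread within either. The increase was 1.54-fold, or 0.63 on the log2 scale (adjusted p = 5.96e-06, standard error 0.05), and stayed between 0.59 and 0.66 under the other settings. The exons of *Stat3* overlap those of *Stat5a* on the opposite strand, and whether the counting used strand is not given in the sources used here. *Stat5a* had 225 to 244 counts in a WT library and 306 to 375 in a knockout library, a small number beside those of *Stat3*.

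*Socs3* (gene ID 12702) gave 250, 217 and 252 counts across the WT libraries and 405, 546 and 458 across the knockout libraries. The lowest knockout library was above the highest WT library. Its log2 fold change was 0.89 (adjusted p = 1.41e-04, standard error 0.11), or 1.85-fold, and lay between 0.77 and 0.98 under the other settings.

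The knockout libraries did not rank alike for ligands and receptors. All 4 ligands were highest, among the knockout libraries, in replicate 3, while the 4 receptor subunits, *Stat3* and *Socs3* were highest in replicate 2. *Il6* stood at 2.98, 2.60 and 3.97 times the WT mean in replicates 1, 2 and 3. *Il6st* stood at 1.59, 2.18 and 1.74 times the WT mean. By a chi-square over genes with at least 20 counts in a pair of libraries, replicate 2 differed more from replicates 1 and 3 than these did from each other. Without it the log2 fold changes were 0.73 for *Il6st*, 0.59 for *Stat3* and 0.77 for *Socs3*, each still called. Among all tested genes, 29.1%, 36.5% and 34.4% were highest in replicates 1, 2 and 3, and among the genes called higher 13.9%, 44.9% and 41.2% were. The coefficient of variation was larger among knockout than among WT libraries for all 10 genes, and over all tested genes its median was 7.69% in the knockout and 4.39% in WT.

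**Figure D3:**
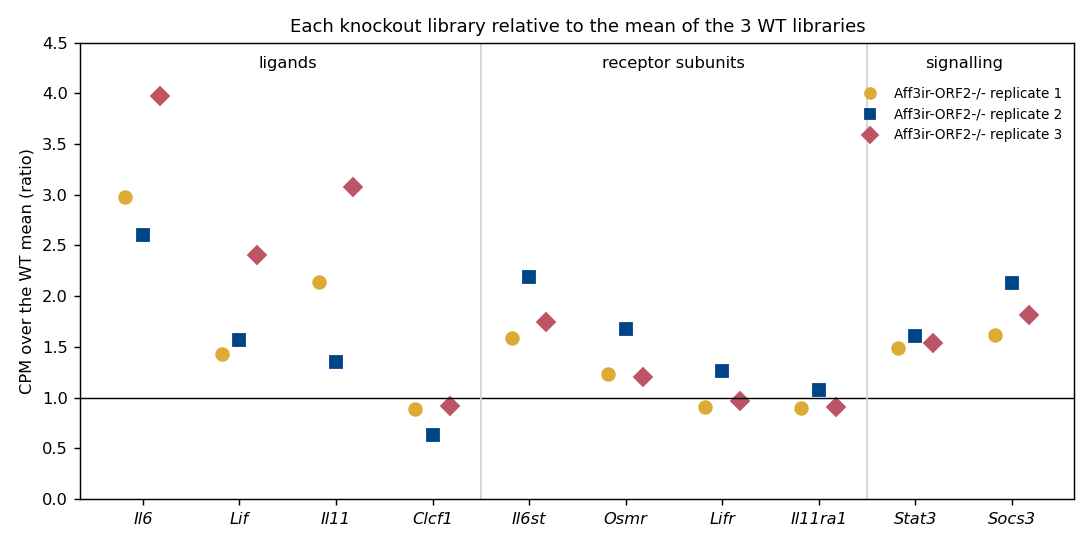
The scaled CPM of each gene in each *Aff3ir-ORF2-/-* library, divided by the mean of the 3 WT libraries (ratio, line at 1). Replicate 3 was highest for the 4 ligands and replicate 2 for the 4 receptor subunits, *Stat3* and *Socs3*.

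Levels of different genes were compared per length, as CPM divided by the length in kilobases of the longest protein-coding transcript in GENCODE M21. In WT MEFs, *Il6st* (31.4 ± 0.319, SD, n = 3), *Stat3* (30.3 ± 0.888) and *Osmr* (30.3 ± 0.593) had the highest levels. The range of *Stat3* overlapped those of both others, while *Il6st* and *Osmr* did not overlap. *Il11ra1* followed at 19.7 ± 0.218, then *Clcf1* at 13.7 ± 1.16 and *Socs3* at 5.39 ± 0.480. The lowest were *Lif* at 3.14 ± 0.0917, *Il11* at 2.57 ± 0.269, *Lifr* at 1.83 ± 0.0465 and *Il6* at 0.890 ± 0.157. From *Osmr* downwards, no 2 neighbours of this order overlapped in WT. *Clcf1* was thus the ligand with the highest level in WT MEFs and *Il6* the lowest of the 10 genes.

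In *Aff3ir-ORF2-/-* MEFs the level per length of *Il6st* was 57.8 ± 9.74, that of *Stat3* 46.8 ± 1.78 and that of *Osmr* 41.6 ± 8.08 CPM per kilobase (SD, n = 3). *Osmr* overlapped both of the others, while *Il6st* and *Stat3* did not overlap. *Socs3*, at 9.99 ± 1.40, came within the range of *Clcf1*, at 11.1 ± 2.14. *Lif* (5.66 ± 1.66) and *Il11* (5.63 ± 2.22) overlapped, and the range of *Il11* also touched that of *Il6* (2.83 ± 0.631). *Il6* was now above *Lifr* (1.91 ± 0.346), though the highest library of *Lifr* (2.31) nearly met the lowest of *Il6* (also 2.31).

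The rest of the pathway was read from a list of 45 further genes, 43 of which were in the table and 38 tested. Of these, 5 were higher and 1 was lower by both thresholds, and 12 more passed the adjusted p threshold alone. The shares over all tested genes were 14.2% higher, 7.27% lower and 56.8% by the adjusted p, and the list was not tested against them. Of the 5, *Ebi3* and *Ptpn6* were under 10 counts in every WT library. The median log2 fold change was 0.11.

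Of the other ligands, *Ebi3*, a subunit of interleukin 27, had 1, 2 and 0 counts in WT and 16, 20 and 20 in the knockout. It passed the filter through the knockout libraries alone, so its test is not given. *Osm*, oncostatin M, which leukocytes are known to secrete, had 0, 1 and 0 counts in WT and 4, 11 and 16 in the knockout. Its counts were too few to be tested. *Cntf* (39, 52 and 39 against 49, 23 and 49 counts) and *Ctf1* (16, 16 and 18 against 18, 23 and 16) overlapped between genotypes. *Il27* and *Il12a* had at most 1 count in any library.

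Of the other receptors, *Il6ra*, which binds *Il6* itself, gave 124, 116 and 116 counts across the WT libraries and 131, 150 and 166 across the knockout libraries. Its log2 fold change was 0.25 with a 95% interval from -0.02 to 0.52 (adjusted p = 0.102). It passed the adjusted p threshold without *Aff3ir-ORF2-/-* replicate 1, at 0.32 (adjusted p = 0.0481). *Cntfr* was lower at 66, 71 and 77 against 59, 45 and 51 counts, a log2 fold change of -0.54 (adjusted p = 0.0197) that lost the threshold without WT replicate 2 or 3 and with DESeq2 (adjusted p up to 0.0766). *Il27ra* was at 10, 12 and 12 against 17, 26 and 20 counts, a log2 fold change of 0.80 (adjusted p = 0.0386) that did not pass in 7 of the 14 other settings (adjusted p up to 0.183). *Il31ra* did not pass, and *Il11ra2* had at most 2 counts in a library.

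Of the Janus kinases, *Jak1* gave 5679, 5496 and 5824 counts across the WT libraries and 5778, 6109 and 6213 across the knockout libraries, with a log2 fold change of 0.01 and a 95% interval from -0.09 to 0.11 (adjusted p = 0.833). *Jak2* was the gene of the list called lower, at 1509, 1540 and 1493 counts against 988, 1224 and 918. All knockout libraries lay below WT, and the log2 fold change was -0.62 (adjusted p = 4.80e-04, standard error 0.09). It was under 1.5-fold with upper quartile scaling and without *Aff3ir-ORF2-/-* replicate 3. *Tyk2* rose by less than 1.5-fold, at 365, 364 and 366 against 481, 528 and 499 counts and a log2 fold change of 0.38 (adjusted p = 5.39e-04). *Jak3*, a kinase known mainly from leukocytes, rose from 61, 57 and 51 to 100, 152 and 135 counts, with a log2 fold change of 1.11 (adjusted p = 5.08e-04). *Stat2*, better known from interferon signalling, rose from 276, 304 and 368 to 490, 761 and 635 counts, with a log2 fold change of 0.91 (adjusted p = 0.00356).

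Among the inhibitors other than *Socs3*, none of the 11 SOCS, CISH and PIAS genes was called by both thresholds, and 5 passed the adjusted p threshold alone, where 14.2% and 7.27% of all tested genes were called higher and lower and 56.8% passed the adjusted p. Of the 9 phosphatases and adaptors, 8 had at least 10 counts in every WT library and none of these was called. The other, *Ptpn6*, encodes Shp1, a phosphatase of blood cells. It gave 6, 6 and 9 counts across the WT libraries and 92, 159 and 173 across the knockout libraries, and passed the filter through the knockout libraries alone, so its test is not given. Among the knockout libraries, *Ptpn6* and *Osm* were highest in replicate 3, as the summed macrophage markers were, and *Jak3* was highest in replicate 2.

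**Figure D4:**
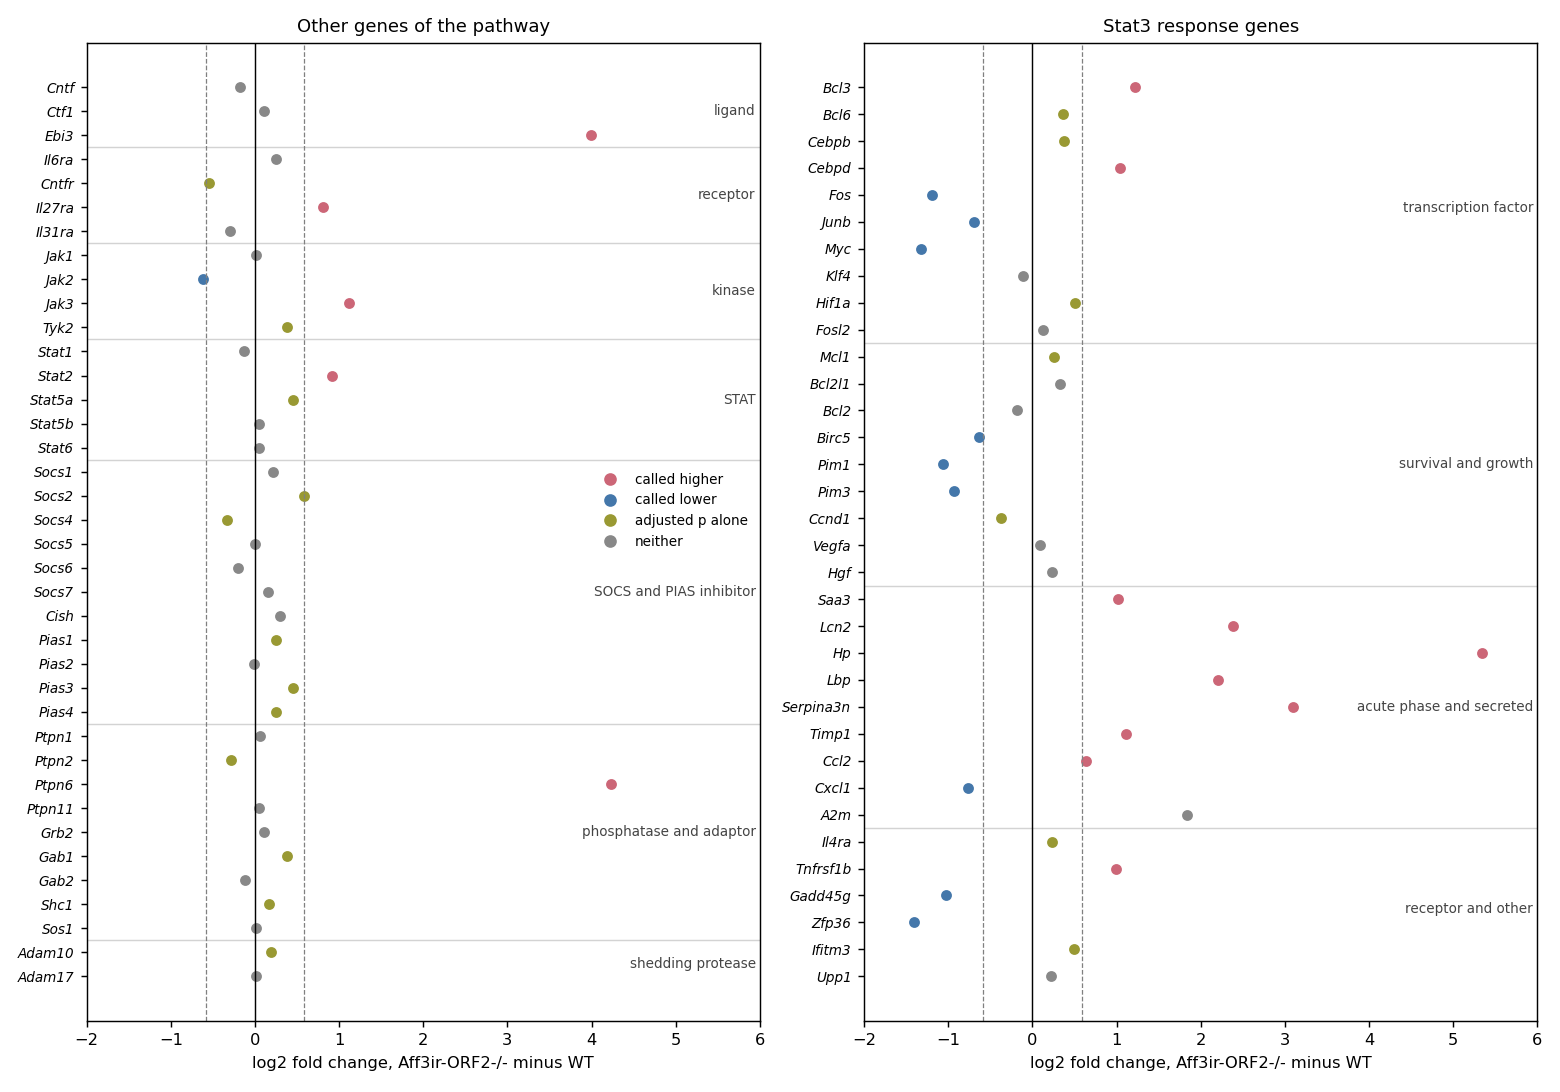
The log2 fold change (*Aff3ir-ORF2-/-* minus WT) of the 38 tested other genes of the pathway on the left and of the 34 tested Stat3 response genes on the right, grouped by role, with dashed lines at a 1.5-fold change and colours for the call. *Hp*, *Lcn2*, *Lbp* and *A2m* on the right and *Ebi3* and *Ptpn6* on the left passed the filter through the knockout libraries. Their positions and colours are therefore not a result. Of the other 5 secreted proteins, 4 were called higher and 1 lower. Survival and growth genes lay between the lines or to the left of the lower one.

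A list of 35 genes known to respond to Stat3 in various cells, 34 of them tested, did not move in one direction. By both thresholds 10 were higher and 9 lower, where 14.2% and 7.27% of all tested genes were, and the median log2 fold change was 0.24. Among genes that reached 10 counts in all 6 libraries, 7 were higher and 9 lower, where 1405 and 825 of 12174 tested genes were. The directions are given by role. Of the 9 acute phase and secreted proteins, 7 were higher and 1 was lower, but *Hp*, *Lcn2*, *Lbp* and *A2m* were under 10 counts in some WT library and passed the filter through the knockout libraries. Of the other 5, 4 were higher and 1 was lower. Of the 9 survival and growth genes, 0 were higher and 3 were lower, with a median of -0.19. Of the 10 transcription factors, 2 were higher and 3 were lower, with a median of 0.24. Of the 6 tested receptors and other genes, 1 was higher and 2 were lower, with a median of 0.23.

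Among the higher genes, *Timp1*, an inhibitor of matrix metalloproteinases, went from 3962, 4006 and 3936 to 9318, 8137 and 9674 counts. Its log2 fold change was 1.11 (adjusted p = 2.43e-06, standard error 0.07). *Serpina3n*, a secreted protease inhibitor, went from 20, 31 and 22 to 125, 307 and 229 counts. *Ccl2*, a chemokine for monocytes, had a log2 fold change of 0.64, *Tnfrsf1b*, a receptor for tumour necrosis factor, of 0.99, and *Cebpd*, a transcription factor of the acute phase, of 1.04. The plasma protein gene *Hp* was chosen after its values were seen. It went from 9, 11 and 6 to 215, 627 and 293 counts, passed the filter through the knockout libraries, and is also expressed by myeloid cells, which was not tested as a source here.

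Among the lower genes, *Myc*, a driver of growth, went from 2607, 2484 and 2479 to 1153, 979 and 1067 counts, with a log2 fold change of -1.32 (adjusted p = 1.10e-06, standard error 0.07). *Pim1* and *Pim3*, kinases that promote survival, had log2 fold changes of -1.06 and -0.93. *Zfp36*, which destabilizes cytokine mRNAs, went from 826, 872 and 846 to 321, 299 and 392 counts, a log2 fold change of -1.41, and *Gadd45g*, a stress gene, had one of -1.03. *Hif1a* and *Ccnd1*, which with *Timp1* had the most counts in the list, passed the adjusted p threshold under 1.5-fold, at 0.51 and -0.37. A list of 10 immediate-early genes, which growth factors switch on within minutes, had 8 lower and 0 higher by both thresholds, where 7.27% and 14.2% of all tested genes were, with a median of -1.75. Several of the lower genes, such as *Myc* and *Zfp36*, are known as early response genes too, and the part of that response in their decrease was not tested.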

How the data were processed

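RNA of 3 WT and 3 *Aff3ir-ORF2-/-* MEF libraries was sequenced on a DNBSEQ instrument and the reads were filtered with SOAPnuke. The values that the authors deposited are estimated counts for each gene in each library, with no normalization. The submitters' processing notes name the build mm8, and the aligner, counter and annotation are not given in the sources used here. Values were rounded to whole counts. Library totals ran from 17435133 to 17726034 in WT and from 18209421 to 18252330 in the knockout, and 0 per-sample columns were left unmatched. Genes were filtered with filterByExpr (minimum count 10, minimum total count 15), scaled by TMM and tested on the whole table with edgeR 4.0.16 (robust quasi-likelihood, Benjamini-Hochberg adjustment). Calls needed an adjusted p under 0.05 and a 1.5-fold change, the fold threshold of the study's methods. "Rose" or "fell" needs the adjusted p alone. Standard errors are the log2 fold change over the square root of F. WT pairs of libraries had a chi-square over degrees of freedom of 1.38 to 1.71, above counting noise, and were kept as 3 replicates. Among knockout pairs it was 5.56 for replicates 1 and 3, and 14.9 and 18.9 for replicate 2 with each of these.

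The members and lists were chosen with earlier results of these data known. Genes named from the lists follow a rule, with 1 gene of the pathway list not reported here: all ligands, receptors and *Jak1*, *Jak2* and *Tyk2*, up to 8 further called genes, up to 5 Stat3 response genes in each direction by adjusted p, and the 3 with the most counts in the response and marker lists. Alternatives were other scalings, filters and thresholds, DESeq2 1.42.0, limma 3.58.1 voom with quality weights by genotype, a block for the replicate number, and leaving out each library. The fit was tested on simulated data. R 4.3.3, Python 3.11.15 and matplotlib 3.10.9 were used.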

Additional observations from a re-analysis of the deposited data

How the results depend on the processing

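The count of 6 higher IL-6 family genes was 6 with other scalings, filters and tools, and 5 to 6 without 1 library, since *Il11* lost its adjusted p without WT replicate 2 or 3 and *Lif* its 1.5-fold change without *Aff3ir-ORF2-/-* replicate 3. It was 2 (*Il6* and *Il11*) at a 2-fold change, and 0 genes were lower under any setting tried. Among the other pathway genes, a 2-fold change gave 3 higher and 0 lower, the adjusted p alone, added after the data were seen, gave 14 and 4, and upper quartile scaling gave 0 lower. Without 1 library, 0 to 2 were lower, 2 without WT replicate 1 or *Aff3ir-ORF2-/-* replicate 1 and 0 without *Aff3ir-ORF2-/-* replicate 3. Of the Stat3 response genes, the adjusted p alone gave 16 higher and a 2-fold change 5 lower. At least 10 counts in every library gave 7 higher and 9 lower, and leaving out 1 library 8 to 11 higher, 8 without WT replicate 3 or *Aff3ir-ORF2-/-* replicate 2. Signs turned for genes near 0 when 1 library was left out: *Lifr* ran from -0.10 to 0.15, *Cntf* from -0.35 to 0.10 and *Ctf1* from -0.044 to 0.21, each crossing without *Aff3ir-ORF2-/-* replicate 2. *Jak1* ran from -0.018 (without WT replicate 2) to 0.031, was at -0.014 without *Aff3ir-ORF2-/-* replicate 3 and at -0.0025 without the filter. The cause of these moves was not tested beyond the libraries or genes left out. With the replicate number as a block, 6 members were higher and 11 response genes were higher in place of 10. Same-numbered libraries had correlations of deviations of 0.0557, 0.0428 and 0.0216, each the highest of its library but too weak to treat the numbers as pairs. Among the other ligands and receptors, depth limits *Osm*, *Ebi3*, *Ctf1*, *Il27*, *Il12a*, *Il27ra*, *Il31ra* and *Il11ra2*, with under 30 counts in every library.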

Other observations

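Some Stat3 response genes were high in a single library. *Gfap*, an intermediate filament gene of astrocytes, had 4, 3 and 3 counts across the WT libraries and 4, 12 and 347 across the knockout libraries, the last in replicate 3, and did not pass the filter for testing. *A2m*, a secreted protease inhibitor, was counted 15, 6 and 15 times in WT and 20, 18 and 99 times in *Aff3ir-ORF2-/-* MEFs, and passed the filter through the knockout libraries, so its test is not given. Both were named after their values were seen.

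Among the acute phase and secreted proteins, *Hp*, *Saa3*, *Lcn2*, *Lbp*, *Serpina3n* and *Ccl2* were highest in replicate 2 of the knockout, at 627 counts of *Hp* and 550 of *Saa3*, and *Timp1*, *Cxcl1* and *A2m* in replicate 3. The ligands *Il6*, *Lif* and *Il11* were highest in replicate 3. *Cxcl1*, the secreted protein of the list that was called lower, was counted 131, 149 and 125 times in WT and 64, 73 and 115 times in *Aff3ir-ORF2-/-* MEFs. With 3 libraries of a genotype, no relation between these ranks was tested.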
